A study of Mus musculus with 6 samples.

Results

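The genes described here are 8 factors that make, process, use or destroy the messenger RNA of replication-dependent histones: Slbp, Npat, Lsm10, Lsm11, Casp8ap2, Zfp473, Eri1 and Upf1. They were taken by name and by function, and each matched 1 row of the 33084 genes counted. All 8 passed the filter on low counts, among 19616 genes tested. RNA was sequenced from microdissected forebrains of mouse embryos at day 15.5 of gestation, with 3 libraries labelled wt (controls) and 3 labelled Dyrk1a<DlxCre/+> (mutants). The mutant genotype is written as heterozygous, the name points to a Dlx-driven Cre, and the series title places the inactivation of Dyrk1a in the Dlx5 domain, the territory of developing GABAergic neurons of the ventral forebrain. Cells outside that domain are in the same tissue sample, and the labels do not say whether the controls carry Cre or the conditional allele. DYRK1A is a dual-specificity protein kinase with roles in the cell cycle and in brain growth.

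Histone messenger RNAs of S phase are the only known animal messenger RNAs that end without a poly(A) tail. They end instead in a short stem-loop, which the stem-loop binding protein SLBP holds from transcription to translation. NPAT, a substrate of cyclin E and CDK2, and CASP8AP2 (FLASH) gather at histone gene clusters, and a small nuclear RNA named U7, with LSM10 and LSM11 in its protein ring, guides cleavage just downstream of the loop. When DNA replication stops, the exonuclease ERI1 and the helicase UPF1 take part in rapid decay of these RNAs. In the embryonic forebrain this pathway runs in dividing progenitors.

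The sequence that SLBP binds is shown first, since it links these factors to the histone transcripts measured in the same libraries. The 3′ untranslated regions of GENCODE M21 transcripts (GRCm38) were searched on the transcript strand for a stem of 6 base pairs beginning GGC around a loop of 4 bases beginning TTT. Of 50 replication-dependent histone genes with an annotated 3′ untranslated region, 38 held such a stem-loop (76%), against 39 of all 18028 protein-coding genes with one (0.216%). None of the 8 factor genes and none of 9 replacement histone genes, whose RNA is polyadenylated, held it. The other gene was H2afx, a histone variant gene. The stem-loop began between 21 and 58 bases after the stop codon, with a median of 31.5 over the 38 genes.

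The loops fell into 5 sequences among the 38 genes and a sixth in H2afx, and 1 gene of each is printed below. For each sequence it is the tested gene with the highest mean level. Capitals mark the stem-loop of 16 bases, written as DNA, and lower case marks 5 bases on each side.
Hist1h1d: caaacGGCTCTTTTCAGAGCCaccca
Hist1h4d: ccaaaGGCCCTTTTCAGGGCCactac
Hist1h2bb: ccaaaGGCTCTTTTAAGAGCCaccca
Hist2h4: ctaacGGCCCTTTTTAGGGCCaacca
Hist2h2ac: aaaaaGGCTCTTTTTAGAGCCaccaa
H2afx: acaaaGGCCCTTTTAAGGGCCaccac

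The Hist1h1d loop lies at chr13:23555787-23555802 on the forward strand and its 16 bases are shared by 22 histone genes. The Hist1h4d loop, at chr13:23581950-23581965 (forward), is shared by 7 genes. The Hist1h2bb loop, at chr13:23747203-23747218 (forward), is shared by 6. Those of Hist2h4 (chr3:96262939-96262954, reverse) and Hist2h2ac (chr3:96220418-96220433, reverse) occur in 2 genes and 1 gene, and that of H2afx is at chr9:44335240-44335255 (forward). U7 is shown with its protein-binding site in capitals, the place where LSM10 and LSM11 join the Sm proteins.
Rnu7: ttacagctcttttagAATTTGTCTAGca
This stretch lies at chr6:124741254-124741281 on the reverse strand, and the capitals are bases 21 to 31 of its 62 bases. U7 was not analysed here as a count.

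The libraries held between 24646616 and 38315004 counts, and the 8 genes together between 9362 and 16358. Forebrain markers were present in every library, with Neurod6 between 211 and 259 CPM (TMM-scaled CPM, each count relative to its library's total) and Gad2 between 110 and 137 CPM. Dyrk1a stood at 169, 183 and 180 CPM in control replicates 1, 2 and 3 and at 186, 159 and 182 CPM in the mutants. Its count covers the whole gene and does not single out the inactivated part, so it checks no label. The 2 libraries of replicate 3, 1 of each genotype, stood apart from the other 4 on the first principal component (37.4% of the variance). The embryonic globin gene Hbb-y reached 321 and 322 CPM there, against 27.8 to 42.5 CPM elsewhere. Red cell genes as a list did not rise there. Over 9 of them, Hbb-y included, replicate 3 differed from replicates 1 and 2 by a median of -0.25 (control) and -0.0006 (mutant) log2 units. Mutant replicate 2 stood apart from the other 5 on the second component (26.4% of the variance). It held the lowest Npat, Casp8ap2, Zfp473 and Eri1, the highest Lsm10 and the highest histone level per Slbp. The median of 19 DNA replication genes in replicate 3 exceeded that in replicates 1 and 2 by 0.58 (control) and 0.56 (mutant) on the log2 scale. Markers of other cells were present in both groups, with summed levels of 45.6 to 59.0 CPM in controls and 45.6 to 59.1 CPM in mutants for 7 microglial genes and 217 to 230 and 217 to 237 CPM for 6 endothelial genes. The ranges matched less closely for 5 choroid plexus genes, at 295 to 342 CPM in controls and 309 to 445 CPM in mutants. For 7 meningeal and mural genes they were 285 to 431 and 307 to 362 CPM. The part of these library differences in the results was not tested.

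None of the 8 genes differed between genotypes beyond the spread of the libraries. In edgeR's quasi-likelihood test, adjusted by Benjamini and Hochberg's method over all 19616 genes, 0 of 8 passed at an adjusted p of 0.05 (adjusted p = 0.9999 for each), as did 0% of all genes. At an unadjusted p under 0.05 there were also 0 of the 8, against 1.92% of all tested genes. In none of the 8 did all mutant libraries lie above all controls (3.19% of all genes) or below them (3.7%). The log2 fold changes, mutant over control, ran from -0.29 to 0.12, with 4 genes above and 4 below 0 and a median of 0.00, beside a median of -0.01 over all tested genes. In whole forebrain, fewer cells that express a gene and less RNA per cell cannot be told apart. The labels do not name litters, so these p-values measure only the spread between these samples.

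**Figure D1:**
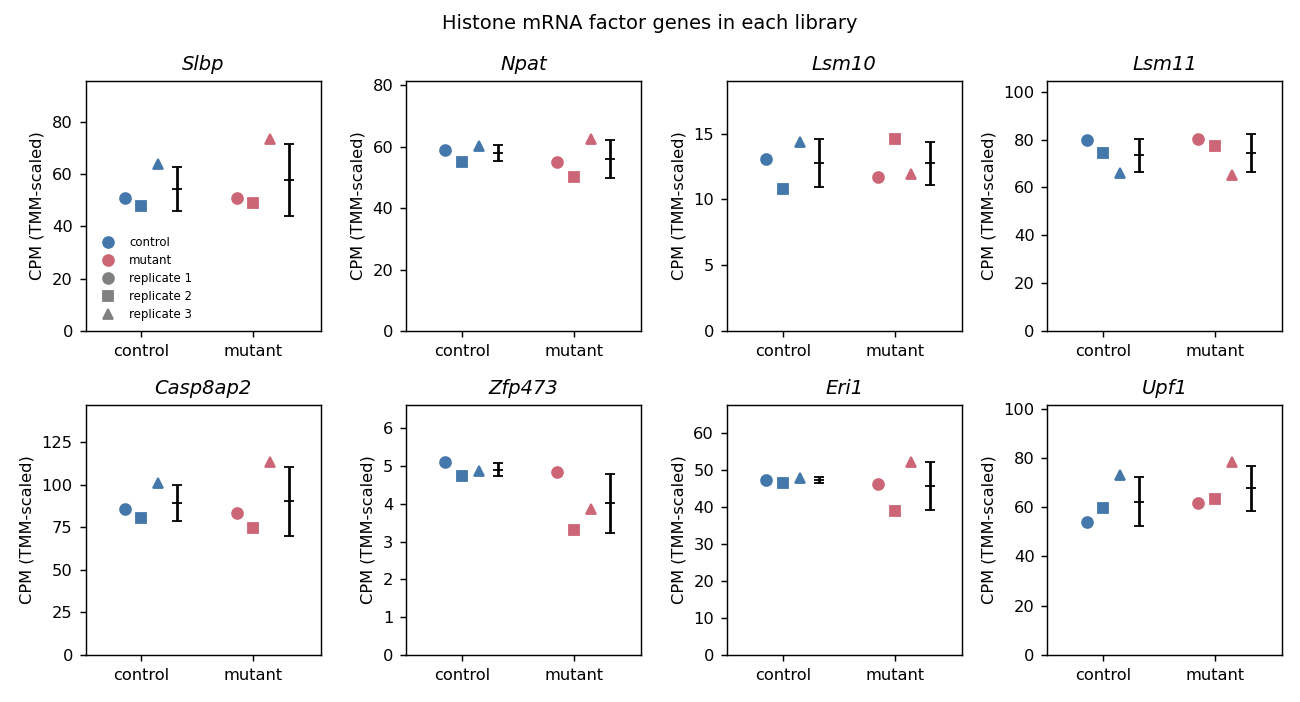
TMM-scaled CPM (vertical axes, from 0) of the 8 genes in each library, with controls in blue, mutants in red and the replicate number by symbol. Black bars give the mean and SD of 3 libraries. The groups overlap in every panel, and the triangles of replicate 3 are the highest of each group for Slbp, Casp8ap2, Upf1, Npat and Eri1 and the lowest for Lsm11.

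Npat encodes the coactivator that switches on histone gene transcription at the start of S phase (ENSMUSG00000033054, GRCm38 chromosome 9, 53537047 to 53574342, forward strand). Control replicates 1, 2 and 3 had 59.0, 55.1 and 60.2 CPM, and those of the mutants 55.2, 50.3 and 62.6 CPM. The groups overlapped, with the highest and the lowest value both in mutants. The log2 fold change was -0.05 with a standard error of 0.10 and a 95% interval from -0.28 to 0.18, or from -17.7% to 13.0%. Npat had the narrowest interval of the 8 genes.

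Casp8ap2 encodes FLASH, a scaffold of the histone locus body that also binds LSM11 in the cleavage machinery (ENSMUSG00000028282, chromosome 4, 32615451 to 32653265, forward strand). It stood at 85.7, 80.3 and 101 CPM in controls and at 83.2, 74.4 and 113 CPM in mutants. Within both groups the library of replicate 3 was the highest and that of replicate 2 the lowest. The log2 fold change was 0.02 ± 0.16 (SE), with an interval from -0.34 to 0.38. The difference, mutant minus control, was -0.08 log2 units within replicates 1 and 2 and 0.17 within replicate 3.

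Slbp encodes the protein that binds the stem-loops printed above (ENSMUSG00000004642, chromosome 5, 33634952 to 33652574, reverse strand). It stood at 51.0, 47.9 and 63.8 CPM in controls and at 50.8, 48.9 and 73.5 CPM in mutants. The 4 libraries of replicates 1 and 2, of both genotypes, lay between 47.9 and 51.0 CPM, and both libraries of replicate 3 lay above them. The group values were 54.2 ± 8.40 and 57.8 ± 13.7 CPM (SD, n = 3 each). The log2 fold change was 0.09 ± 0.17 (SE). The 95% interval ran from -0.30 to 0.48, or from -18.8% to 39.4%. Without mutant replicate 3 the value was -0.12, and without control replicate 3 it was 0.23, neither past the threshold.

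LSM10 and LSM11 are Sm-like proteins that replace 2 of the standard Sm proteins in the ring around U7. Lsm10 (ENSMUSG00000050188, chromosome 4, 126096623 to 126098584, forward strand) stood at 13.1, 10.8 and 14.4 CPM in controls and 11.7, 14.6 and 11.9 CPM in mutants. Its libraries followed neither genotype nor replicate number, and the log2 fold change was -0.01 ± 0.15 (SE). Lsm11 (ENSMUSG00000044847, chromosome 11, 45928269 to 45944935, reverse strand) stood at 79.9, 74.5 and 66.2 CPM in controls and 80.3, 77.4 and 65.3 CPM in mutants. It was lowest in both libraries of replicate 3, where Slbp was highest, and its log2 fold change was 0.02 ± 0.11 (SE), with an interval from -0.23 to 0.27.

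Zfp473 encodes the zinc finger protein ZFP100, which binds the complex of SLBP and the stem-loop (ENSMUSG00000048012, chromosome 7, 44731480 to 44751050, reverse strand). It had the smallest p of the 8 genes. The controls held 5.09, 4.74 and 4.88 CPM, from 117 to 185 counts, and the mutants 4.85, 3.31 and 3.87 CPM, from 84 to 138 counts. Mutant replicates 2 and 3 lay below every control, while mutant replicate 1 lay within the control range. The log2 fold change was -0.29 ± 0.18 (SE), with an interval from -0.69 to 0.11 and an unadjusted p of 0.136 (adjusted p = 0.9999, edgeR's quasi-likelihood test). The value was -0.44 without mutant replicate 1, with an unadjusted p of 0.046 (adjusted p = 0.9999, edgeR's quasi-likelihood test). No other alternative put any of the 8 genes under an unadjusted p of 0.05. Without mutant replicate 2 the Zfp473 value was -0.17. Zfp473 shares 205 exonic bases with Vrk3 on the opposite strand, and no source used here gives the strand setting of the counts.

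**Figure D2:**
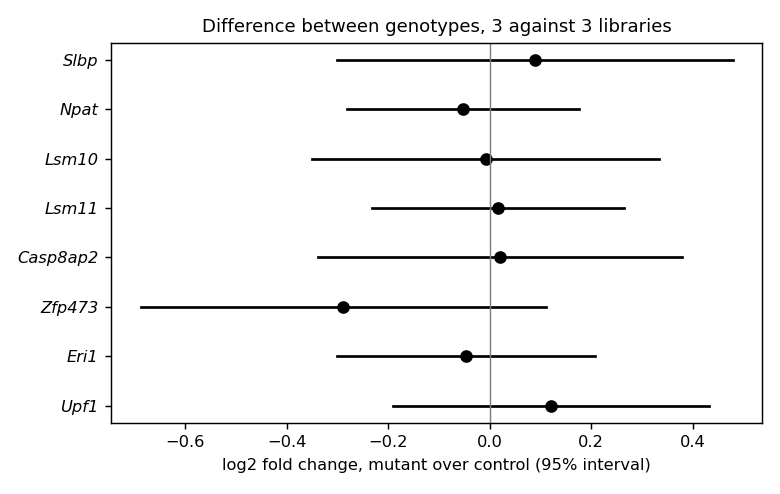
Log2 fold changes (horizontal axis, mutant over control) of the 8 genes, with points for the fitted value and lines for the 95% interval from 3 against 3 libraries. Every interval includes 0, and that of Zfp473 reaches furthest below it, to -0.69.

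Eri1 and Upf1 act at the end of the RNA's life: ERI1 trims the 3′ end of the stem-loop, and UPF1, better known from nonsense-mediated decay, is recruited by SLBP when replication is blocked. Eri1 (ENSMUSG00000031527, chromosome 8, 35465253 to 35496196, reverse strand) stood at 47.4, 46.4 and 47.8 CPM in controls (SD 0.71, n = 3), the smallest SD relative to the mean among the control values of the 8 genes. The mutants held 46.1, 38.9 and 52.0 CPM and spread on both sides of the controls, and the log2 fold change was -0.05 ± 0.11 (SE). Upf1 (ENSMUSG00000058301, chromosome 8, 70331525 to 70353278, reverse strand) stood at 53.9, 59.7 and 73.2 CPM in controls and 61.7, 63.2 and 78.2 CPM in mutants. Of the 8 genes only Upf1 had the mutant above the control within each replicate number, by 0.19, 0.08 and 0.10 log2 units. Zfp473 had the mutant below the control within each, at -0.07, -0.51 and -0.33, and the numbers were not taken to pair all libraries. The Upf1 log2 fold change of 0.12 ± 0.14 (SE) did not pass, and its interval ran from -0.19 to 0.43. Without mutant replicate 3 the Upf1 value was 0.01. Upf1 shares 68 exonic bases with Cers1 on the opposite strand, and Slbp shares 474 with Gm10459. Without TMM scaling Cers1 averaged 19.1 CPM and Gm10459 0.099 CPM.

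Set on a scale per kilobase of merged exons, 6 of the factors overlapped with their neighbours and 2 lay lower. Upf1 averaged 14.1 ± 1.95 CPM per kilobase over the 6 libraries (SD), Lsm10 13.5 ± 1.63, Casp8ap2 13.1 ± 2.12, Lsm11 11.5 ± 1.03, Slbp 9.22 ± 1.70 and Npat 9.13 ± 0.71. Neighbours in that order overlapped in their ranges over the libraries. Eri1, at 5.24 ± 0.48, lay below Npat without overlap, and Zfp473, at 0.44 ± 0.07, lay 11.8-fold below Eri1. Zfp473 stood at the 12.3 percentile mark of tested genes on this scale and Upf1 at 80.5. The order depends on the length used. The merged exons of Slbp span 6076 bases and its longest coding transcript 1906. Per kilobase of the latter it averaged 29.4 and was the highest of the 8. On that length Eri1 averaged 9.14, and its range of 7.67 to 10.2 overlapped that of Npat, 8.29 to 10.3.

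Between libraries, Slbp, Casp8ap2 and Upf1 had a common pattern that followed replicate 3. On the log2 CPM scale replicate 3 exceeded the mean of replicates 1 and 2 by 0.37 (control) and 0.56 (mutant) for Slbp, by 0.28 and 0.52 for Casp8ap2 and by 0.37 and 0.32 for Upf1. Npat followed with 0.08 and 0.25 and Eri1 with 0.03 and 0.29. Lsm11 went the other way, with -0.22 and -0.27. Lsm10 had 0.27 and -0.13, and Zfp473 was near 0 in both, at -0.01 and -0.05. These are differences between libraries of the same genotype, with 1 library of replicate 3 in each group and no test.

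**Figure D3:**
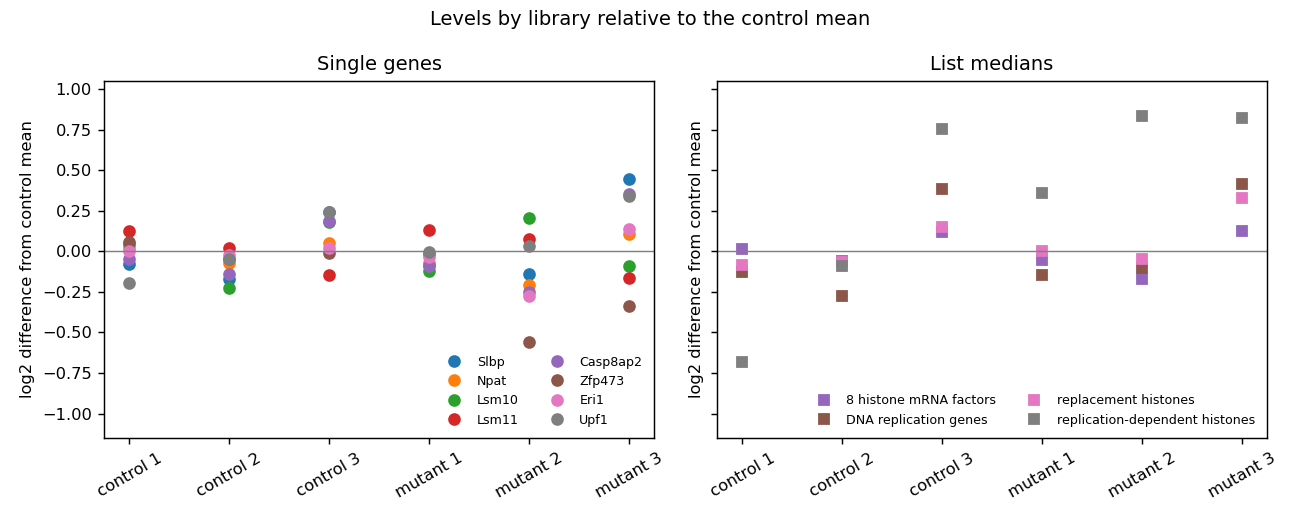
Log2 difference from the control mean (vertical axis) in each library, for the 8 genes (left) and as medians of 4 gene lists (right). Slbp, Casp8ap2 and Upf1 are high in control 3 and mutant 3, as is the median of the DNA replication genes, while the replication-dependent histones are also high in mutants 1 and 2.

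The genes most like 3 of the factors over the 6 libraries were taken by Pearson's r of log2 CPM, among 10908 genes averaging 10 CPM or more. For Slbp these were Cep55 (r = 0.999), a gene of the final step of cell division, Rnd3 (0.998) and Shisa2 (0.997). For Npat they were Zfp873, Pde7a and Ppp1r15b, each at 0.996 or above, and for Upf1 they were Adsl, Hnrnpab and Snhg5, each at 0.989 or above. With 6 points, of which 2 stand apart, such values are common: 746 genes had an r above 0.9 with Slbp, 502 with Npat and 382 with Upf1.

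Slbp varied less between libraries when set against the transcripts of DNA replication. The 19 replication genes, among them the Mcm2 to Mcm7 helicase subunits and the sliding clamp gene Pcna, summed to between 979 and 1539 CPM in controls and between 1065 and 1538 CPM in mutants, a 1.57-fold span. Slbp itself spanned 1.53-fold. Per 1000 CPM of the replication genes it stood at 46.4, 48.9 and 41.4 CPM in controls and 47.7, 44.7 and 47.8 CPM in mutants, a 1.18-fold span. On this scale the groups were at 45.6 ± 3.81 and 46.8 ± 1.75 CPM (SD, n = 3 each), so genotypes differed by less than the spread of the controls. The span also narrowed on this scale for Casp8ap2, from 1.52-fold to 1.25-fold, and for Upf1, from 1.45-fold to 1.28-fold. It widened for Npat (1.25-fold to 1.44-fold), Lsm10 (1.35 to 1.72), Lsm11 (1.23 to 1.79), Zfp473 (1.54 to 1.92) and Eri1 (1.33 to 1.53).

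The histone transcripts themselves spanned a wider range. The 56 tested replication-dependent histone genes summed to 2700, 3404 and 5769 CPM in controls and 4371, 5748 and 6076 CPM in mutants, a 2.25-fold span. Replicates 1 and 2 of the mutants lay above those of the controls, while Slbp in the same 4 libraries lay between 47.9 and 51.0 CPM. The summed histone CPM divided by Slbp CPM was 52.9, 71.1 and 90.5 in controls and 86.0, 117 and 82.7 in mutants, so the groups overlapped. This ratio is not corrected for transcript length. The difference in its log2 was 0.43, from 6.13 ± 0.39 to 6.56 ± 0.28 (SD, n = 3 each). Over all 20 assignments of libraries to groups, the exact permutation p (two-sided) was 0.30, where 0.10 is the smallest possible. By replicate number it was 0.70, 0.73 and -0.13 for replicates 1, 2 and 3. Leaving out control replicate 3 gave 0.62, leaving out control replicate 1 gave 0.23, and leaving out mutant replicate 2 gave 0.27. Values of single histone genes and their sums are uncertain, because several of these genes have almost the same sequence. How reads that match more than 1 of them were counted was not examined.

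**Figure D4:**
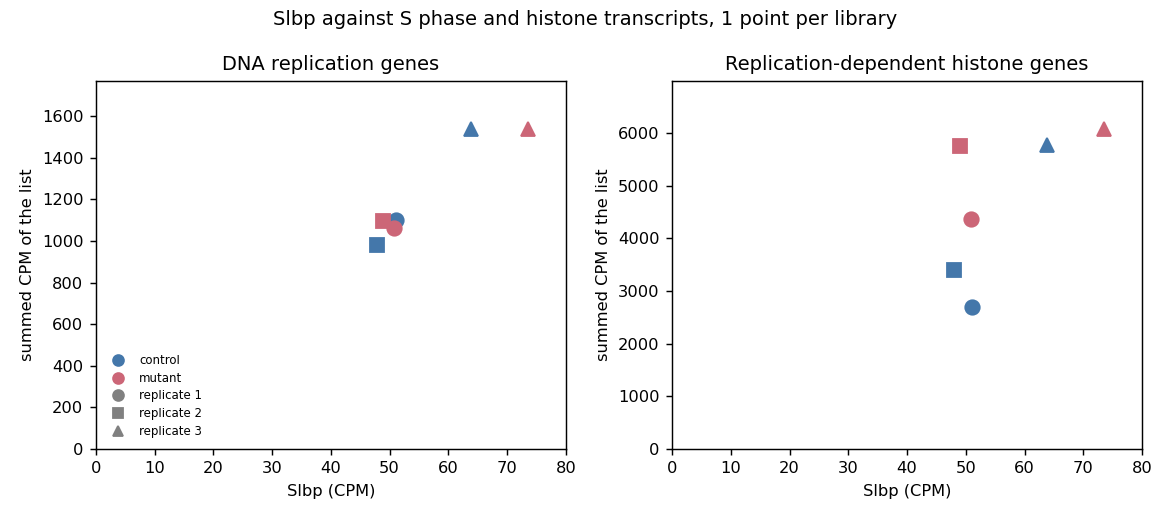
Slbp (horizontal axes, CPM) against the summed CPM of 19 DNA replication genes (left) and of 56 replication-dependent histone genes (right), 1 point per library, all axes from 0. At left the 4 libraries of replicates 1 and 2 form 1 cluster of both genotypes, and at right the same libraries spread from 2700 to 5748 CPM at nearly equal Slbp.

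The histone values were also set beside the stem-loop sequences, with no test between them. The 34 tested histone genes with a stem-loop in their annotated transcript had a median log2 fold change of 0.57. The 22 in which none was found had 0.62, beside -0.01 over all tested genes. Only 50 of the 65 histone genes had an annotated 3′ untranslated region, so the 22 include genes that could not be searched. Over the 56 genes together, the median log2 difference was 0.98 when only replicates 1 and 2 were compared, but 0.04 between the libraries of replicate 3. Among the 20 tested genes with the most common loop, that of Hist1h1d, the median was 0.55, and it was 0.61 for the 6 with the loop of Hist1h4d and 0.56 for the 5 with that of Hist1h2bb. Hist2h4 had 0.34 ± 0.22 and Hist2h2ac 0.78 ± 0.32 (SE). H2afx, named here from the sequence search, stood at 21.4, 37.2 and 45.9 CPM in controls and 46.9, 47.4 and 60.5 CPM in mutants, all mutants above all controls, with a log2 fold change of 0.57 ± 0.24 (SE). It did not pass in edgeR's quasi-likelihood test (unadjusted p = 0.0447, adjusted p = 0.9999). The replacement histone genes H3f3a and H3f3b, without a stem-loop, had 0.01 ± 0.12 and 0.04 ± 0.08 (SE), and 8 of 9 such genes lay above 0 with a median of 0.04. The smallest p of the 9 belonged to H1fx, a linker histone gene, at 0.43 ± 0.24 (SE), with all mutants above all controls (unadjusted p = 0.112, adjusted p = 0.9999, edgeR's quasi-likelihood test).

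In the 4 further lists of pathway genes, too, 0 genes passed the adjusted threshold. Several of their genes lay further above 0 than any of the 8 factors, with Lsm7, Snrpf and Snrpg the highest. Of 8 further genes tied to histone gene transcription, 0 passed in either direction. They include Hinfp, the H4 gene activator, and the cyclin E genes. Of these 8, 4 lay above and 4 below 0, and the median was 0.00. The smallest p belonged to Pou2f1, an activator of H2B genes, at -0.12 ± 0.10, to Ccne2 at 0.12 ± 0.23 and to Coil, a scaffold of Cajal bodies, at 0.04 ± 0.10 (SE). The NPAT kinase gene Cdk2 had 33.4 and 34.3 CPM in the libraries of replicate 3, against 21.2 to 24.5 CPM in the other 4.

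Of 15 genes for the cleavage complex, the Sm ring and the cap-binding complex, 0 passed, 8 lay above and 7 below 0, and the median was 0.05. Snrpf, Snrpd3 and Snrpg, subunits of the Sm ring, had the smallest p, at 0.30 ± 0.17, -0.19 ± 0.12 and 0.28 ± 0.22 (SE). Snrpd3 stood at 36.8, 44.2 and 37.6 CPM in controls and 33.7, 39.2 and 30.8 CPM in mutants, with overlapping groups. It shares 232 exonic bases with Gucd1 on the opposite strand, which averaged 42.8 CPM without TMM scaling. The scaffold gene Sympk and the nuclease gene Cpsf3 had 0.08 ± 0.10 and 0.06 ± 0.09 (SE).

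Of 18 genes for export, translation and decay, 0 passed, 10 lay above and 8 below 0, and the median was 0.02. Lsm7, Lsm4 and Lsm3, subunits of the LSM1-7 ring that binds oligouridylated RNA ends, had the smallest p, at 0.52 ± 0.22, 0.23 ± 0.11 and 0.22 ± 0.15 (SE). Lsm7 stood at 4.50, 4.66 and 7.64 CPM in controls and 7.35, 8.86 and 8.00 CPM in mutants. Only mutant replicate 1 lay inside the control range, and the unadjusted p was 0.0415 (adjusted p = 0.9999, edgeR's quasi-likelihood test). The uridylyltransferase genes Tut4 and Tut7 had -0.04 ± 0.12 and -0.05 ± 0.08 (SE).

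Among genes whose products act on SLBP, 0 passed, with Csnk2a1 at -0.04 ± 0.09, Ccna2 at 0.08 ± 0.24 and Cdk1 at 0.04 ± 0.23 (SE). CDK1 with cyclin A marks SLBP for destruction at the end of S phase. Ccna2 stood at 82.0, 77.3 and 123 CPM in controls and 89.0, 75.0 and 135 CPM in mutants, the same order by replicate number as Slbp.

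**Figure D5:**
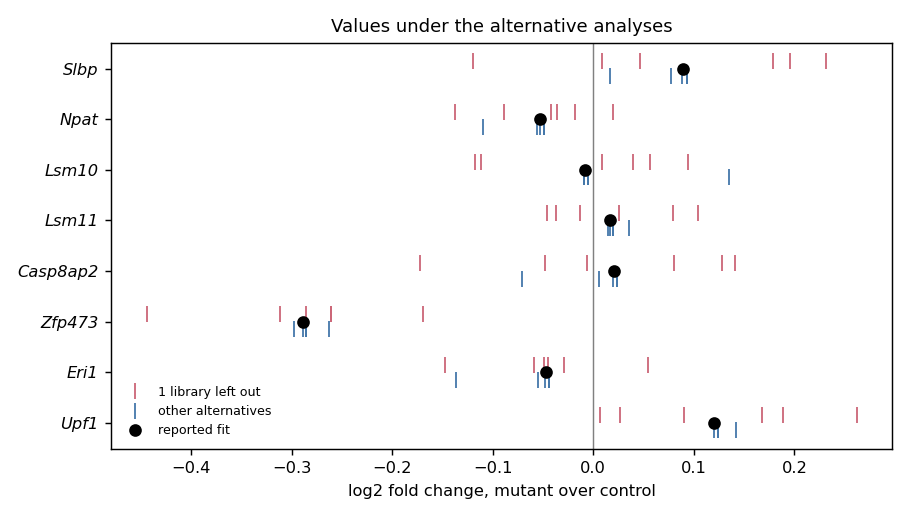
Log2 fold changes (horizontal axis, mutant over control) of the 8 genes in the reported fit (black), with 1 library left out (red ticks) and under the other alternatives (blue ticks). Zfp473 stays below 0 and Upf1 above 0 in all of these, and the ticks of the other 6 genes lie on both sides of 0.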

How the data were processed

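The authors deposited 1 table of raw read counts for 33084 genes in 6 libraries. Per the labels' protocols, the series' design text and the submitters' processing notes, libraries were made with a stranded total RNA kit after ribosomal RNA removal, though the labels also name the molecule polyA RNA, sequenced single-end, aligned with HISAT2 to GRCm38, and counted with HTSeq 0.9.1 (SAMtools 1.9, bcl2fastq 2.17.1.14). No source used here gives the HISAT2 version or the strand setting. RNA without a poly(A) tail depends on that step, so histone counts do too. Symbols, coordinates and sequences came from GENCODE M21, which matched 32888 of 33084 identifiers.

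Genes were kept by filterByExpr (count minimum 10, total minimum 15). The test was edgeR 4.0.16 (R 4.3.3), quasi-likelihood with robust estimation, TMM scaling, control against mutant, Benjamini-Hochberg adjustment over all 19616 genes and a threshold of 0.05. Each standard error is the absolute log2 fold change over the square root of F. Log2 CPM used a prior count of 2. DESeq2 1.42.0, other size factors, no filter, a replicate block, replicates 1 and 2 only, and each library left out were alternatives. No 2 columns were identical. The members and lists were chosen with earlier results of these data known. The rule for named genes took the 8 members, 3 genes per partner list with the smallest p, and 3 genes most like Slbp, Npat and Upf1. Some genes that this rule or the marker lists hold are not reported here. Other partner and histone genes are named for their function after their values were seen.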

Additional observations from a re-analysis of the deposited data

How the results depend on the processing

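No factor or partner gene passed the threshold under any of the 11 alternatives. The sign was less firm for values near 0. With only replicates 1 and 2, Lsm10 had 0.13 (reported -0.01) and Casp8ap2 -0.071 (reported 0.02), and 3 genes of the whole table passed, against 0, none of them a factor or partner. With 1 library left out, log2 fold changes ran from -0.12 to 0.23 for Slbp, -0.14 to 0.019 for Npat, -0.12 to 0.094 for Lsm10, -0.046 to 0.10 for Lsm11, -0.17 to 0.14 for Casp8ap2, -0.44 to -0.17 for Zfp473, -0.15 to 0.055 for Eri1 and 0.01 to 0.26 for Upf1. In these fits Lsm10 changed sign in 4 (0.01, 0.094, 0.06 and 0.04), Casp8ap2 in 3 (-0.01, -0.05 and -0.17), Lsm11 in 3 (-0.046, -0.04 and -0.01), and Slbp (-0.12), Npat (0.019) and Eri1 (0.055) in 1 each. The cause was not tested. The log2 difference in the histone to Slbp ratio ran from 0.23 to 0.62 with 1 library left out and was 0.71 with only replicates 1 and 2, against 0.43. With a replicate block 0 genes passed and 765 had an unadjusted p under 0.05, against 376. Same-numbered libraries correlated at 0.24, 0.07 and 0.36 in their deviations from the group means, and control replicate 2 was closer to mutant replicate 1 (0.35), so the numbers were not taken to pair all libraries, although both libraries of replicate 3 were alike. The block moved the SE of Slbp from 0.17 to 0.080 and its value to 0.078, not past the threshold. Within replicate numbers the histone to Slbp ratio differed by 0.43 in log2 (exact sign-flip permutation p = 0.50, smallest possible 0.25). DESeq2 passed 0 genes (261 unadjusted). With 3 libraries a group, the 95% intervals of the 8 genes had lower bounds between -37.9% and -12.4% and upper bounds between 7.96% and 39.4%.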
